A study of Mus musculus with 8 samples.

Results

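Type I alveolar epithelial cells (AECI) were compared with type II cells (AECII) from WT embryonic mouse lungs, both isolated by fluorescence-activated cell sorting. The comparison used 4 of the 8 arrays of the series, which were chosen by their labels: 2 arrays of WT AECI and 2 of WT AECII, described by the submitters as biological replicates. The other 4 arrays held the same populations from lungs called mutant after the labels, in which signalling through Fgfr2b, a receptor of epithelial cells for fibroblast growth factors, had been inhibited in vivo. The series gives the span from embryonic day E16.5 to E18.5 for all its lungs, and whether this is the age of the WT lungs at isolation or the time of the inhibition is not stated. WT lungs had no such inhibition. Not given in the sources used here were the strain, the genotype behind either name, the agent that inhibited the receptor, any pooling of embryos and the markers used for sorting. All genes were examined, with 1 spot for each gene symbol, the one with the highest mean over the 8 arrays, which gave 24568 genes.

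AECI are flat, thin cells that cover most of the alveolar surface and carry gas exchange, whereas AECII are cuboidal cells that make, store and secrete surfactant, the lipid and protein film that lowers surface tension. Both arise from epithelial progenitors of the distal lung before birth. AECI are known for caveolae, for type IV collagen of the basement membrane shared with capillaries and for sodium and water channels, and AECII for lamellar bodies, lipid synthesis and proteins of innate defence.

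Signals are given on a log2 scale on which the median of all spots was 5.01 and the highest value 15.99, and differences are AECI minus AECII with their standard error (SE, n = 2 arrays per group). Since no detection limit was given, signals near or below that median could not be told from background, and a difference against such a signal is given only as that of the measured signals, not as the size of the true change. In limma's moderated test with Benjamini-Hochberg adjustment, 1722 genes (7.01%) had an adjusted p under 0.05, 704 of them (2.87%) higher in AECI and 1018 (4.14%) lower. The median difference over all genes was 0.0033. Among the genes that passed, the median size of the difference was 2.06 for those higher and 2.33 for those lower, and 67 and 109 of them differed by more than 16-fold. With 2 arrays per group, both AECI arrays lay on the same side of both AECII arrays for 48.9% of all genes, so that separation of the arrays alone says little. The fit that left out 1 WT array, and thus kept a single array of that group, called from 527 genes, when WT AECII replicate 2 was absent, to 1178, when WT AECI replicate 1 was, with 1062 when WT AECI replicate 2 and 648 when WT AECII replicate 1 was the one left out. Replicates correlated with r = 0.962 in AECI and 0.975 in AECII across genes, and arrays of different populations with r = 0.932 to 0.940, where genes are not independent replicates.

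**Figure D1:**
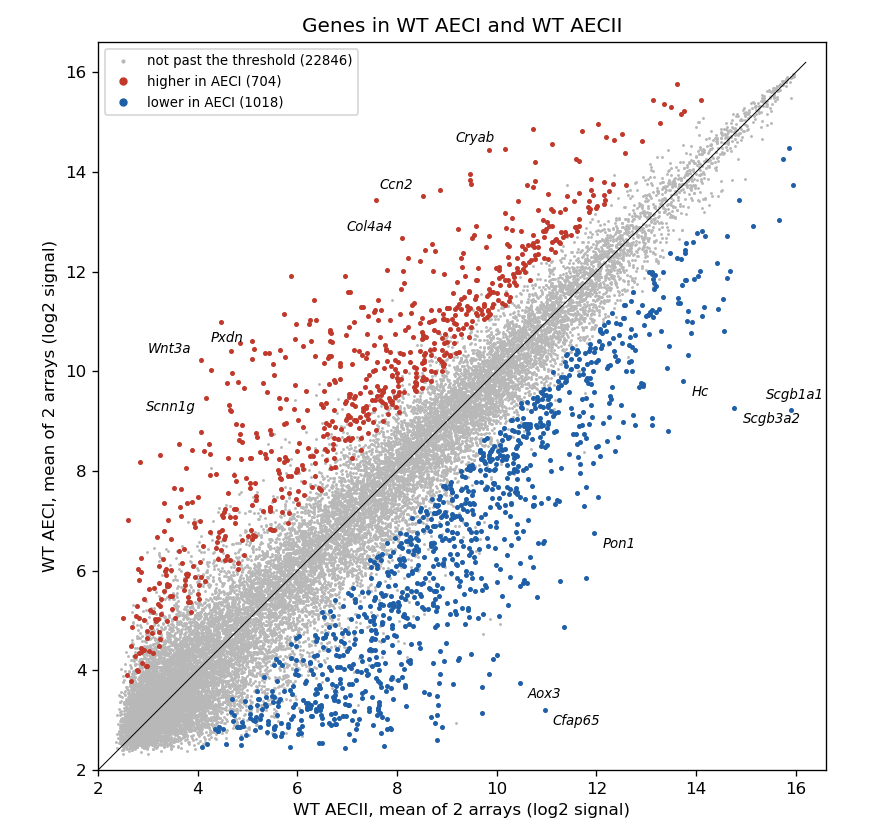
Mean log2 signal of each of 24568 genes in WT AECII (x axis, 2 arrays) and WT AECI (y axis, 2 arrays). Red points mark the 704 genes higher and blue points the 1018 genes lower in AECI at an adjusted p under 0.05 (limma), grey points the others, and the line equal signals. Genes with high signals in either population were called in both directions, and few genes were called where both signals were low.

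The share of genes called depended on signal. Where the higher group's mean was under 5, 0.475% of 9691 genes were called. This share was 7.39% from 5 to 8, 12.8% from 8 to 11 and 16.7% from 11 to 13, with no further rise at 13 or more. The median SE was 0.42 in the dimmest class and 0.26 in the brightest. For 415 called genes another spot had a group mean of at least 8, and 599 of 610 such spots (98.2%) differed in the same direction, 541 of them by more than 2-fold. In 22.9% of the genes higher and 31.1% of those lower in AECI, the mean of the lower group was under the median of all spots.

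The labels were first set against marker genes. In AECI, 28 of the 33 AECI markers measured were higher and 1 was lower, against 2.87% and 4.14% of all genes, with a median difference of 2.94. Of 28 AECII markers, none was higher and 22 were lower, with a median of -1.95. Rtkn2, used as an AECI marker, had signals of 10.07 and 9.87 in WT AECI replicates 1 and 2, and of 5.26 and 4.11 in WT AECII replicates 1 and 2 (difference 5.28 ± 0.48, adjusted p = 0.00245). Gramd2 (14.66 and 14.46 in AECI, 11.28 and 10.95 in AECII) and Akap5, an anchor for protein kinase A (13.47 and 13.37, against 10.57 and 10.29), were also far above the median of all spots in the AECII arrays. Ager, the receptor for advanced glycation end products, had signals of 15.50 and 15.37 in AECI and 14.16 and 14.05 in AECII, near the top of the scale in both. Leaving out any of the WT arrays ended its call (adjusted p up to 0.14). The single AECI marker that was lower was the cytochrome P450 gene Cyp2b10 (3.35 and 3.30 against 6.59 and 7.33), dim in AECI and called in all fits but the one without WT AECII replicate 2 (adjusted p = 0.0599).

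Among the AECII markers, Lpcat1, which makes the phosphatidylcholine of surfactant, had signals of 13.52 and 13.08 in AECII and 10.91 and 10.70 in AECI (-2.50 ± 0.28, adjusted p = 0.00455). Lyz2, a lysozyme, and Lgi3 stood at 14.62 and 12.38 on average in AECII and were lower in AECI by a difference of -1.90 ± 0.23 and -2.07 ± 0.25. The surfactant protein gene Sftpc (15.90 and 15.89 in AECII, 15.47 and 15.49 in AECI) and the lung chemokine gene Cxcl15 (15.64 and 15.67, against 13.20 and 12.89) reached the top of the scale, so no fold change is given. Most markers of either population thus had signals above the median of all spots in the other one too, although Rtkn2, Col4a3 and Scnn1g were near or below it in AECII and Il33 was just above it in AECI. Without either WT AECII array, 9 of the AECII markers remained past the threshold, and at the lowest 20 of the AECI markers (without WT AECII replicate 1). The common epithelial genes Epcam (11.69 to 12.07 over the WT arrays), Cdh1 (9.26 to 9.90) and Nkx2-1, the lung lineage transcription factor (13.49 to 13.69), were present in all 4 arrays, and none of them passed the test. Xist, the RNA of the inactive X chromosome, had signals of 12.44 to 13.17 in the WT arrays and of 3.50 to 5.14 in the mutant arrays, so it was bright in both WT populations and at background in the mutant ones.

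Among the genes higher in AECI, those with the smallest p were led by Pxdn, which encodes peroxidasin, the peroxidase that crosslinks type IV collagen. Its signals were 10.43 and 10.47 in AECI and 5.14 and 5.10 in AECII (5.32 ± 0.23, adjusted p = 0.00120). Chains of that collagen stood beside it. Col4a4 had signals of 12.57 and 12.80 in AECI and 8.08 and 8.13 in AECII, and Col4a3 of 10.05 and 10.75 against 4.41 and 4.91. Col4a4 thus differed by more than 16-fold. The measured signals of Col4a3 did too, but Col4a3 was near background in AECII, so this is not the size of its true change. Itgb3, the integrin beta 3 chain, stood at 10.93 and 11.14 in AECI and 6.44 and 6.07 in AECII (4.78 ± 0.31). Ccn2, a matricellular protein also known as connective tissue growth factor, was far brighter in AECI (13.37 and 13.67) than in AECII (8.59 and 8.45), with a difference of 5.0 ± 0.33.

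Other genes of this group were of different kinds. Cryab and Hspb2, which encode small heat shock proteins and lie side by side in the genome, were both higher. Cryab had signals of 14.41 and 14.53 in AECI and 10.20 and 10.13 in AECII (4.30 ± 0.26), and Hspb2 of 9.76 and 9.78 against 5.09 and 5.53 (4.46 ± 0.28). Atoh8, a basic helix-loop-helix transcription factor, stood at 9.71 and 9.74 in AECI and 5.93 and 5.98 in AECII (3.77 ± 0.24, adjusted p = 0.00144). Tshb, the beta subunit of the pituitary hormone thyrotropin, had a signal of 10.98 and 11.31 in AECI against 6.07 and 5.37. Akr1c14, an aldo-keto reductase that acts on steroids, was also higher (11.99 and 11.85 against 7.03 and 6.89). Scnn1g, Trim16, Plscr2, Tmem37 and Misp3 completed the 15, with differences between 4.40 ± 0.25 (Tmem37) and 5.53 ± 0.29 (Misp3). These 15 were chosen by the smallest p in the same arrays, so their calls in the fits that left out 1 array are no separate support.

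The 15 genes lower in AECI with the smallest p began with Cxcl5, a chemokine that attracts neutrophils, at 8.63 and 8.47 in AECII and at 3.52 and 3.61, below the median, in AECI (-4.98 ± 0.24, adjusted p = 0.00120). Inpp4b, a phosphatase of phosphoinositides, had signals of 10.76 and 10.59 in AECII and 6.20 and 6.36 in AECI (-4.40 ± 0.24). Col6a1, a chain of type VI collagen, was bright in AECII (12.76 and 12.70) and lower in AECI (8.96 and 9.28), and its neighbour Col6a2 differed by -3.77 ± 0.36, with AECII arrays at 14.54 and 14.60 and a mean of 10.80 in AECI. These genes thus differed in the opposite direction to Col4a3 and Col4a4. Proteases of the cell surface and of secretions were Tmprss4 (10.44 and 10.50 in AECII, 5.76 and 5.61 in AECI) and the kallikrein Klk13 (11.18 and 11.25, against 7.20 and 7.63). The tetraspanin Tspan11 differed by -4.05 ± 0.24. Enzymes of lipid and drug metabolism were Cyp4v3, a fatty acid hydroxylase (-4.36 ± 0.24), Pon1, a paraoxonase that was also in the list of club and secretory airway genes (-5.18 ± 0.33), Cyp1b1 (-5.82 ± 0.40) and Aldh1a1, which makes retinoic acid (-4.45 ± 0.31). Scgb3a2, a secretoglobin of airway secretory cells, and Cfap65, a protein of motile cilia, belong to cell types of the conducting airways that are described further below. Tlcd4, Odf3b and Ccdc68 made up the rest. This group too was chosen by p in the same arrays, so its calls in the fits that left out 1 array are no separate support.

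**Figure D2:**
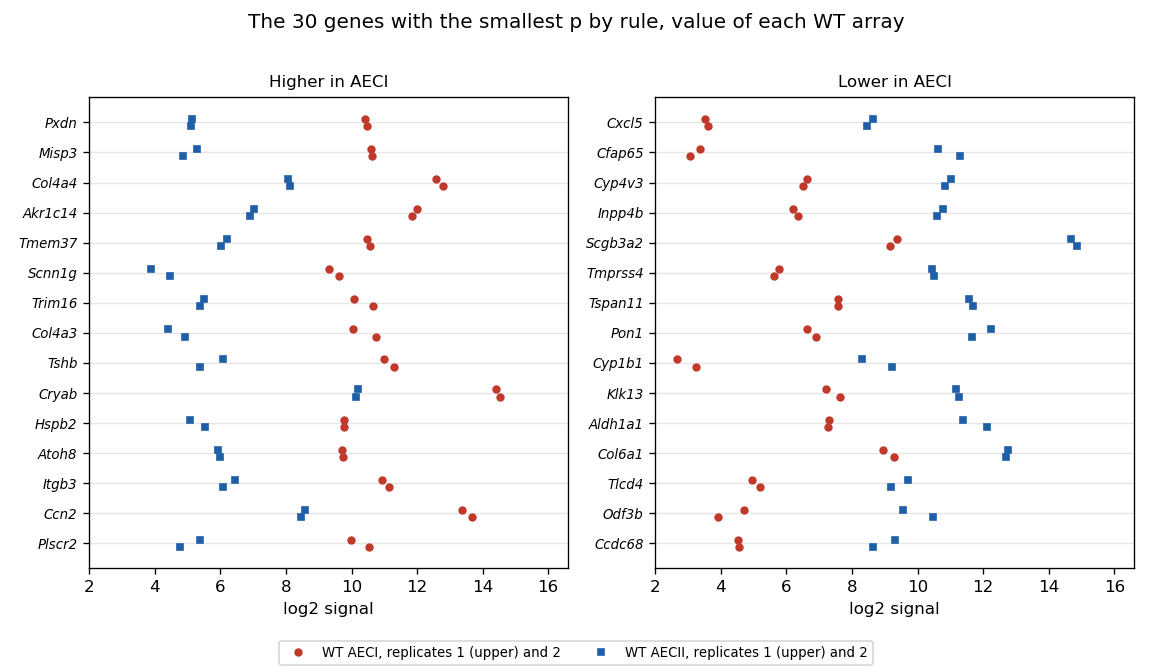
Log2 signal (x axis) of each WT array for the 15 genes higher (left) and the 15 lower (right) in AECI that had the smallest p by the rule. Circles are WT AECI and squares WT AECII arrays, with replicate 1 drawn above replicate 2. The rule chose genes with a small p and no overlap between populations, so the separation seen is a description of the genes chosen.

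Caveolae are flask-shaped pits of the plasma membrane built from caveolins and cavins and held at the neck by Ehd2. Of 10 measured genes of this list, 8 were higher in AECI and none was lower, against 2.87% and 4.14% of all genes. The median difference was 3.46, against 0.0033 over all genes. Cav1, the main caveolin, had signals of 13.42 and 13.85 in AECI and 9.16 and 8.57 in AECII (4.77 ± 0.33, adjusted p = 0.00157), and its partner Cav2 of 12.31 and 12.51 against 8.81 and 8.72. All 4 cavin genes were higher. Cavin2 stood at 13.70 and 14.24 in AECI and 9.50 and 9.44 in AECII (4.50 ± 0.31), Cavin4, known mainly from muscle, at 11.01 and 10.50 against 7.02 and 7.77, and Cavin3 at 8.03 and 8.32 against 2.87 and 2.83, which was below the median of all spots in AECII. Cavin1, at 15.76 and 15.75 in AECI and 13.80 and 13.42 in AECII, was near the top of the scale. Ehd2 differed by 3.57 ± 0.30 and the membrane-bending protein gene Pacsin2 by 1.20 ± 0.23. The calls of Cavin1 and Pacsin2 were the ones lost without WT AECII replicate 2 (adjusted p = 0.0689 and 0.135), where 6 members remained. Pacsin2 was also lost without any other WT array or either mutant AECII array.

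Keratins and the junctions between cells also differed. Of 17 keratin and desmosome genes, 10 were higher and 1 was lower in AECI, against 2.87% and 4.14% of all genes, with a median difference of 1.34. Krt7, a keratin of simple epithelia, stood at 11.97 and 12.20 in AECI and 9.45 and 9.17 in AECII (2.77 ± 0.30), and Krt80 and Krt19 differed by 2.50 ± 0.33 and 1.86 ± 0.27. Evpl and Ppl, which encode envoplakin and periplakin, linkers of keratin to the membrane, were both higher. Evpl had signals of 11.91 and 12.12 in AECI and 8.23 and 9.23 in AECII. The keratin that was lower was Krt23, at 7.30 and 7.49 in AECII and 3.89 and 3.93 in AECI (-3.49 ± 0.24). Pard6b, a scaffold of apical polarity, was higher in AECI (13.43 and 13.70, against 11.15 and 10.90), as was Tjp1, the tight junction protein ZO-1 (mean 13.03, against 11.18 and 10.69), whereas Cldn10, a claudin, was lower (-2.07 ± 0.30). Of 26 tight junction genes, 4 were higher and 1 was lower, against 2.87% and 4.14% of all genes, with a median of -0.04.

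Of 11 gap junction genes, none was called higher and 3 were called lower in AECI, against 2.87% and 4.14% of all genes. At the same time 7 of the 11 differences were positive and the median was 0.39. Gjb6, which encodes connexin 30, had signals of 12.08 and 11.78 in AECII and 8.65 and 7.67 in AECI (-3.77 ± 0.37, adjusted p = 0.00306). Gjb1 (connexin 32) stood at 9.0 and 10.01 against 5.37 and 6.33, and Gjb2 (connexin 26), the neighbour of Gjb6, at 9.97 and 9.85 against 8.33 and 6.95. The arrays of these 3 genes did not overlap between the populations, with AECI lower, as in 25.5% of all genes. Several of the calls in the keratin and junction lists were lost when a WT AECII array was left out, although the median of the keratin list was then 1.42 (without replicate 1) and 1.38 (without replicate 2). In the fit without WT AECII replicate 2, 3 keratin and desmosome genes remained higher and the calls of Gjb1 (adjusted p = 0.0582), Tjp1 (0.063) and Ppl (0.0775) were lost. The call of Krt80 was lost without WT AECII replicate 1 (0.0563). Krt19 and Cldn10 were lost without either WT AECII array (adjusted p up to 0.0694), and Gjb2 without either WT AECII array, WT AECI replicate 2 or either mutant AECII array (up to 0.171).

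Ion and water transport divided the populations by gene. Of 24 sodium, chloride and water transport genes, 9 were higher and 3 lower in AECI (median 0.76), against 2.87% and 4.14% of all genes. All 3 subunits of the epithelial sodium channel were higher. Scnn1a had signals of 12.80 and 12.89 in AECI and 10.37 and 10.27 in AECII (2.53 ± 0.24), Scnn1b of 10.38 and 9.91 against 5.37 and 5.64, and Scnn1g of 9.31 and 9.62 against 3.87 and 4.46. The beta and gamma subunits, which are neighbours in the genome, were thus near the median of all spots in AECII, while the alpha subunit was not. Aqp5, a water channel of the apical membrane, stood at 14.38 and 14.52 in AECI and 10.03 and 9.65 in AECII (4.61 ± 0.39). The chloride intracellular channel proteins Clic5 (mean 14.86, against 11.14 and 10.31) and Clic3 (14.30 and 14.13, against 11.95 and 11.34) and the calcium-activated chloride channel Ano1 (11.39 and 11.49, against 9.17 and 9.40) were also higher.

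Other anion channels were lower in AECI. Slc26a9, an epithelial chloride channel, had signals of 11.79 and 11.78 in AECII and 8.63 and 8.70 in AECI (-3.12 ± 0.26, adjusted p = 0.00186), and Cftr, the cystic fibrosis chloride channel, of 12.29 and 12.31 against 9.41 and 9.49 (-2.85 ± 0.40). Potassium channels were lower where they differed, with 5 of 24 lower, none higher and a median of -0.32. The shares of all genes were 4.14% lower and 2.87% higher. Of the 24, 8 were under the median of all spots in all 4 WT arrays. Kcnk6, among those lower, was the reverse in the mutant arrays, as given below. Kcne2, a regulatory subunit, stood at 10.76 and 10.09 in AECII and 6.30 and 7.0 in AECI, and Kcnj2, an inward rectifier, at 9.72 and 9.51 against 4.13 and 5.98. Among the carriers of amino acids, Slc1a1, which takes up glutamate, was higher in AECI (10.05 and 10.27, against 6.41 and 6.64), as was Slc7a7 (10.82 and 10.56, against 8.14 and 8.52), and Slc43a2 was lower (5.57 and 4.99, against 8.38 and 8.62). The bicarbonate carrier gene Slc4a5 was higher by 3.97 ± 0.56, and Trf, the iron carrier transferrin, was brighter in AECII (13.54 and 13.34, against 8.92 and 8.67). Without either WT AECII array the calls of Cftr (adjusted p up to 0.0647) and Kcnj2 (up to 0.057) were lost, that of Slc4a5 without WT AECII replicate 2 (0.0694), and 1 potassium channel gene remained without WT AECII replicate 1.

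**Figure D3:**
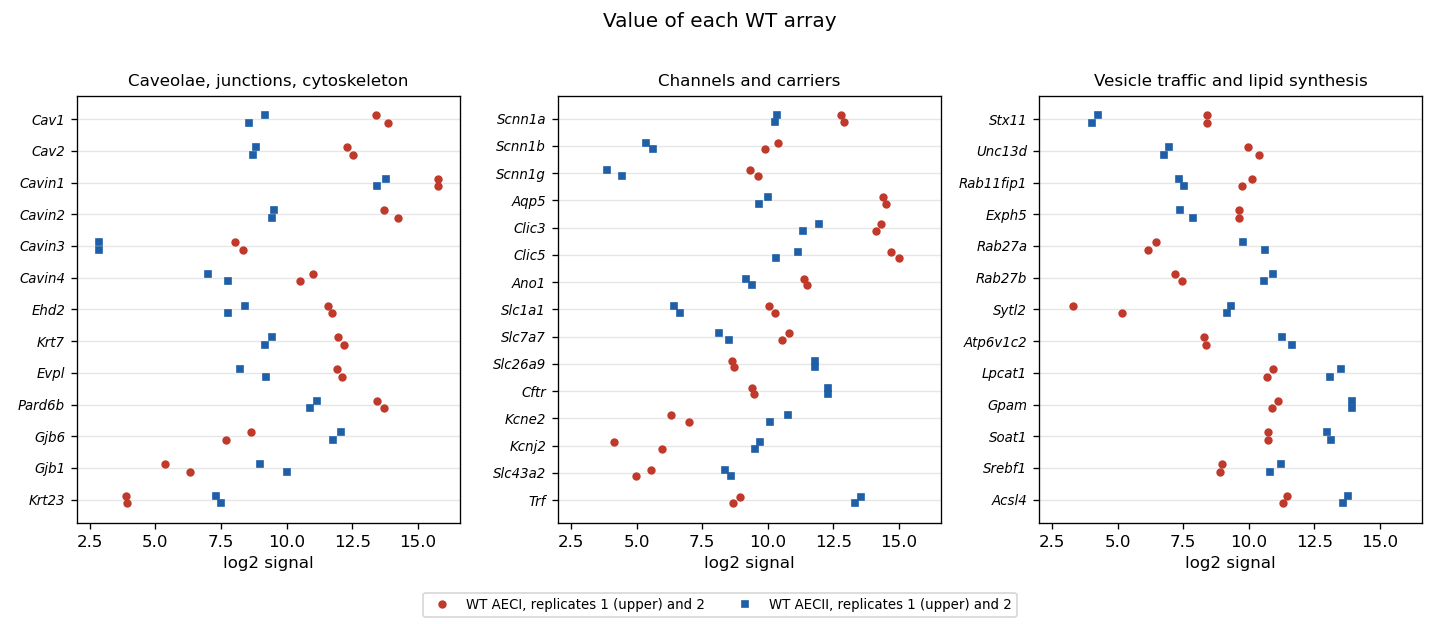
Log2 signal (x axis) of each WT array for 41 genes of caveolae, junctions and cytoskeleton (left), of channels and carriers (middle) and of vesicle traffic and lipid synthesis (right). Circles are WT AECI and squares WT AECII arrays, with replicate 1 drawn above replicate 2. Genes of one list lie on opposite sides, such as Clic3 and Slc26a9 or Stx11 and Rab27a.

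Genes of the basement membrane and its receptors were mostly higher where they differed, with 13 of 32 higher, 1 lower and a median of 0.71. The shares of all genes were 2.87% higher and 4.14% lower. Agrn, a heparan sulfate proteoglycan, stood at 12.81 and 12.88 in AECI and 9.43 and 9.02 in AECII (3.63 ± 0.26, adjusted p = 0.00161). Itgb6, whose integrin activates latent TGF-beta, stood at 10.94 and 11.12 against 6.94 and 5.81, and the laminin chain Lamb2 differed by 1.78 ± 0.25. The exception was Itga9, an integrin alpha chain, at 11.73 and 11.75 in AECII and 8.96 and 9.42 in AECI. Spock2, a proteoglycan of the extracellular matrix, was among the largest differences (13.41 and 13.46, against 8.13 and 7.03). Of 40 proteases and inhibitors, 8 were higher and 2 lower, against 2.87% and 4.14% of all genes, while the median was -0.06. Among those higher were Mmp11, a matrix metalloproteinase (8.35 and 8.46, against 5.28 and 5.65), Plaur, the urokinase receptor (8.86 and 9.17, against 6.02 and 5.99), and Serpinb1a, an inhibitor of neutrophil proteases (8.66 and 8.88, against 5.28 and 5.06). Serpinf1, pigment epithelium-derived factor, was lower in AECI (11.42 and 11.07, against 14.47 and 14.40). Without either WT AECII array 4 of the basement membrane genes remained higher and the call of Lamb2 was lost (adjusted p up to 0.0604), and 3 of the proteases and inhibitors remained higher without WT AECII replicate 2.

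Of 40 genes of the WNT pathway, 3 were higher in AECI and none was lower, against 2.87% and 4.14% of all genes. The list's median was 0.31, and the 3 called genes were ligands. Wnt3a had signals of 9.78 and 10.68 in AECI and 4.54 and 3.60 in AECII (measured difference 6.16 ± 0.49, adjusted p = 0.00185), where both AECII signals were under the median of all spots, and Wnt7a of 11.54 and 11.64 against 6.66 and 7.44. Wnt9a, which lies beside Wnt3a, was dim (5.71 and 6.13, against 3.11 and 3.61). Semaphorins, ligands known for guiding axons and vessels, were higher for Sema6d (11.57 and 12.25, against 6.45 and 5.29), Sema3a (10.86 and 10.45, against 6.07 and 5.82) and Sema3e (10.09 and 10.77, against 7.52 and 6.74), and lower for Sema4f (9.45 and 9.94, against 12.55 and 12.08). In all, 4 of 31 genes of the semaphorin, plexin and neuropilin list were higher and 2 lower, against 2.87% and 4.14% of all genes, with a median of 0.28, and each fit without 1 array called 3 higher and 1 lower.

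Of 25 genes for signals to vessels and stroma, 6 were higher in AECI and none was lower (median 0.48), against 2.87% and 4.14% of all genes. Edn3, an endothelin, stood at 10.24 and 10.06 in AECI and 7.17 and 7.02 in AECII (3.05 ± 0.29). Pdgfa, a growth factor for alveolar myofibroblasts, differed by 1.81 ± 0.25, and Ptch1, a hedgehog receptor and target, by 2.23 ± 0.30. Vegfa, the main growth factor of endothelial cells, was near the top of the scale in AECI (15.31 and 15.43) and at 13.36 and 13.35 in AECII. In the BMP and TGF-beta pathway 6 of 38 genes were higher and 3 lower (median 0.31), against 2.87% and 4.14% of all genes. Tgfb2 (10.83 and 11.16, against 7.38 and 6.91), Fstl3, an inhibitor of activins (10.29 and 10.24, against 6.72 and 6.50), and the BMP target Id3 (1.97 ± 0.28) were higher, and Bambi, a decoy receptor, was lower (-1.93 ± 0.27). In the Notch pathway 2 of 23 genes were higher and 2 lower (median 0.23), against 2.87% and 4.14% of all genes. The ligand gene Jag2 (8.43 and 8.08, against 5.43 and 4.72) and Dlk2 (11.84 and 10.72, against 7.21 and 7.33) were higher while Jag1 was lower (9.29 and 9.10, against 11.02 and 11.44). In the fibroblast growth factor pathway 3 of 29 genes were higher and 3 lower (median 0.24), against the same shares of all genes. The ligand Fgf18 was higher in AECI (10.98 and 11.26, against 7.57 and 7.26), and Dusp4, a phosphatase that dampens ERK signalling, was lower (10.02 and 9.98, against 12.82 and 12.59). Of 14 genes of the insulin-like growth factor pathway, 3 were higher and 2 lower (median 0.44), against 2.87% and 4.14% of all genes. The binding proteins Igfbp6 and Igfbp7 were among those higher, by 2.99 ± 0.24 and 3.32 ± 0.33. Of 29 receptors with 7 transmembrane segments, 5 were higher and 4 lower (median 0.19), against 2.87% and 4.14% of all genes. Among those higher were Lpar1, for lysophosphatidic acid (3.27 ± 0.35), and F2r, for thrombin (2.98 ± 0.30). Without WT AECII replicate 2, 2 of the signals to vessels and stroma remained, and the calls of Jag1 (adjusted p = 0.0653) and Ptch1 (0.058) were lost. Without WT AECII replicate 1, 2 BMP and TGF-beta genes remained higher and none lower, and the calls of Wnt9a (0.054) and Bambi (0.0588) were lost. The calls of Id3 (up to 0.0693), Pdgfa (up to 0.0647) and Vegfa (up to 0.0661) were lost without either WT AECII array.

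**Figure D4:**
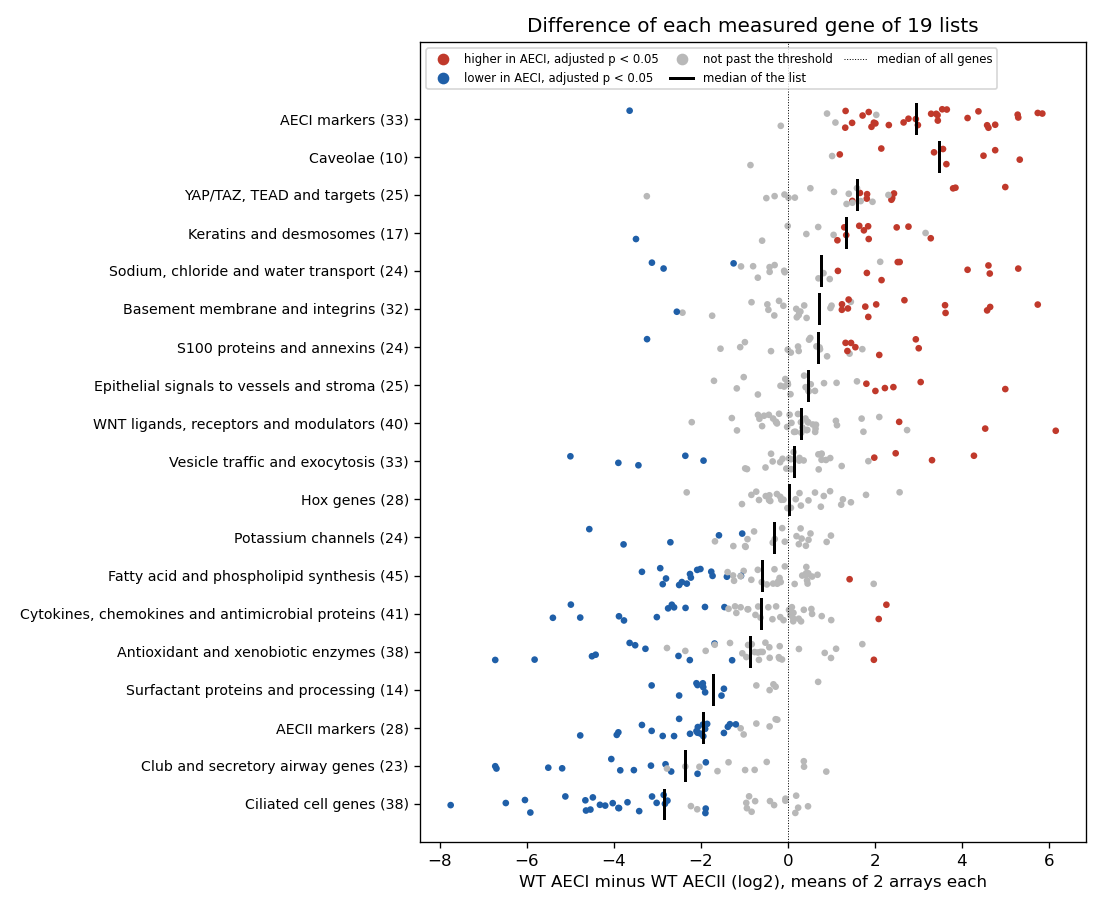
Difference of WT AECI minus WT AECII (x axis, log2) for every measured gene of 19 lists, with the number of genes in parentheses. Red points were higher and blue points lower in AECI at an adjusted p under 0.05, grey points did not pass, bars mark the median of each list and the dotted line the median of all genes. The caveolae list lies almost wholly to the right (median 3.46) and the ciliated cell list to the left (median -2.84), while vesicle traffic genes lie on both sides (median 0.13).

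YAP and TAZ are coactivators that bind TEAD transcription factors in the nucleus when the Hippo kinases are inactive, and their targets respond to cell stretch. Of 25 genes of this list, 10 were higher in AECI and none was lower, against 2.87% and 4.14% of all genes, with a median of 1.59. Wwtr1, which encodes TAZ, had signals of 11.64 and 11.50 in AECI and 9.18 and 9.08 in AECII (2.44 ± 0.35), and Tead1 of 13.10 and 13.36 against 10.83 and 10.83 (2.40 ± 0.27). Yap1 itself, at 10.57 and 10.83 in AECI and 9.99 and 10.37 in AECII, did not pass the test (0.52 ± 0.32, adjusted p = 0.451). Ajuba, a scaffold that inhibits the Hippo kinases, stood at 8.91 and 8.36 against 4.60 and 5.07 (3.80 ± 0.35, adjusted p = 0.00255), and Wwc2, an activator of those kinases, at 11.20 and 11.26 against 8.69 and 9.0. Factors on both sides of the pathway were thus higher. When WT AECII replicate 1 was left out, 4 members remained and the call of Wwc2 was lost (adjusted p = 0.0577), and that of Wwtr1 was lost without either WT AECII array (up to 0.0699).

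Since TEAD factors are known to bind the letters GGAATG, the promoters of these genes were searched for them on both strands, as GGAATG or CATTCC. RefSeq windows of 300 bases, from 250 before to 50 after the start of transcription, were available for 22 of the 25 genes, and 14 of the 22 (63.6%) held the letters at least once, against 14.6% of all 27025 promoters. Among the members called higher this was 5 of 8. It was 14.8% of the 539 promoters of all genes higher in AECI, 10.7% of the 815 of genes lower and 1 of 26 for the AECI markers, but 7 of 21 for the AECII markers and 4 of 9 for the surfactant genes. The list was made of known targets and regulators of these factors. The 3 promoters shown are of members that were higher in AECI and hold the letters, given in capitals. They lie at chr14:54577612-54577911 for Ajuba (minus strand, letters beginning 186 and 164 bases before the start), chr8:47990495-47990794 for Wwc2 (minus strand, 203, 94 and 79 bases before) and chr3:57575861-57576160 for Wwtr1 (minus strand, 136 bases before), on GRCm38.p6.
Ajuba: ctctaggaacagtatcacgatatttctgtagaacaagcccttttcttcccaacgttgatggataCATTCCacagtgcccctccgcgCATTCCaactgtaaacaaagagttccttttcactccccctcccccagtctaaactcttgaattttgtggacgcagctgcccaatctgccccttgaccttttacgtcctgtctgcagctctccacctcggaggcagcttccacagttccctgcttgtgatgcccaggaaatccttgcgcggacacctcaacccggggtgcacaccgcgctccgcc
Wwc2: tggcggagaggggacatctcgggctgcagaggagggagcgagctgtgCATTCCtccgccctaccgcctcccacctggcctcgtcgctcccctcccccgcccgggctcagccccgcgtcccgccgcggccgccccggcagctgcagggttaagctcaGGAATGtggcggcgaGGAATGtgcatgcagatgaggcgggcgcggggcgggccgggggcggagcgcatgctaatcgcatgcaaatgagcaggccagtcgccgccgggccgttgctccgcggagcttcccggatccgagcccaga
Wwtr1: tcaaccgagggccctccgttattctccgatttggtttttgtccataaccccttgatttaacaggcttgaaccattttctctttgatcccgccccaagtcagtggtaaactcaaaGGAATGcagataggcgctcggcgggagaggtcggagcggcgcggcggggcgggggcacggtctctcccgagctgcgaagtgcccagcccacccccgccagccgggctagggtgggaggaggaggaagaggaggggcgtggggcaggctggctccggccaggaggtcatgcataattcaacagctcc

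Of 42 transcription factors of the lung epithelium, 2 were higher and 5 lower in AECI, against 2.87% and 4.14% of all genes, with a median of -0.23. Without WT AECI replicate 2 or WT AECII replicate 1, 1 of the 5 remained lower. Hopx, a homeodomain protein that marks AECI, had signals of 14.16 and 14.25 in AECI and 10.49 and 11.04 in AECII (3.44 ± 0.31). Elf5, an ETS factor of distal epithelium, was lower (6.19 and 6.92, against 11.03 and 10.64; adjusted p = 0.00186). Cebpa, a regulator of AECII maturation and lipid genes, stood at 15.15 in both AECII arrays and at 13.34 and 12.50 in AECI, and its call was lost without WT AECI replicate 2 or either WT AECII array (adjusted p up to 0.104). A pair of related factors of the secretory pathway that are cut from the endoplasmic reticulum membrane differed in opposite directions. Creb3l1 was lower in AECI (7.24 and 7.90, against 10.10 and 10.13), and Creb3l2 was higher (10.55 and 10.84, against 8.80 and 8.34), although the call of Creb3l2 was lost without WT AECII replicate 2 (adjusted p = 0.0722).

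Genes of vesicle traffic differed in both directions. Of 33 measured, 4 were higher and 5 lower in AECI, against 2.87% and 4.14% of all genes, with a median of 0.13, and 3 were lower without any 1 of the WT arrays. Rab27a and Rab27b, small GTPases that dock secretory granules, were both lower. Rab27a had signals of 9.79 and 10.61 in AECII and 6.45 and 6.16 in AECI (-3.89 ± 0.39), and Rab27b of 10.91 and 10.58 against 7.18 and 7.45 (-3.43 ± 0.36). Sytl2, a synaptotagmin-like effector of Rab27, was at 9.33 and 9.15 in AECII and at 3.32 and 5.17 in AECI. In contrast, other partners of the same machinery were higher. Stx11, a syntaxin, stood at 8.40 and 8.41 in AECI and 4.25 and 4.01 in AECII (4.28 ± 0.31, adjusted p = 0.00161), and Unc13d, the Munc13-4 priming factor that Rab27 recruits, at 9.97 and 10.38 against 6.97 and 6.75 (3.31 ± 0.32). Rab11fip1, an effector of recycling endosomes, was higher by 2.48 ± 0.29, and Exph5, another Rab27 effector, by 1.99 ± 0.28. The call of Exph5 was lost without WT AECII replicate 1 (adjusted p = 0.0612).

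Genes of surfactant proteins and their processing were lower in AECI for 9 of 14, and none was higher (median -1.71). The shares of all genes were 4.14% lower and 2.87% higher. Sftpb, the surfactant protein that spreads the lipid film, had signals of 13.69 and 14.09 in AECII and 11.17 and 10.35 in AECI (-3.13 ± 0.37, adjusted p = 0.00535). Sftpd, a collectin, stood at 14.01 and 13.90 against 11.95 and 11.75, and Sftpa1, another, at 13.76 and 13.83 against 11.91 and 11.77. Napsa, the protease that cuts surfactant protein precursors, differed by -2.07 ± 0.28, Lamp3, of the lamellar body membrane, by -1.94 ± 0.28 and Abca3, its lipid pump, by -1.90 ± 0.27. The arrays of these 6 genes did not overlap between populations, with AECI lower, as in 25.5% of all genes. The AECI arrays were well above the median of all spots for each. Without either WT AECII array 2 of the 9 remained, and the calls of Sftpd, Sftpa1, Napsa, Lamp3 and Abca3 were lost (adjusted p up to 0.0717 for Sftpa1), while that of Sftpb was kept in each fit without 1 array.

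Lipid synthesis was lower in AECI in part of its genes, with 15 of 45 fatty acid and phospholipid genes lower, 1 higher and a median of -0.60. The shares of all genes were 4.14% lower and 2.87% higher. Gpam, which starts glycerolipid synthesis, had signals of 13.92 in both AECII arrays and 11.11 and 10.87 in AECI (-2.93 ± 0.24, adjusted p = 0.00186). Acsl4, a fatty acid ligase, and Srebf1, the transcription factor of lipogenesis, differed by -2.32 ± 0.25 and -2.08 ± 0.27, and Soat1, which esterifies cholesterol, stood at 12.97 and 13.13 against 10.74 and 10.75. Scd1, a desaturase (-2.87 ± 0.37), and Cd36, a fatty acid carrier (-3.35 ± 0.45), were lower too. Atp6v1c2, a subunit of the proton pump of lysosome-related organelles, stood at 11.26 and 11.66 in AECII and 8.31 and 8.37 in AECI (-3.12 ± 0.28). Without either WT AECII array 5 lipid genes remained lower, the call of Scd1 was lost without replicate 2 (adjusted p = 0.0556) and that of Cd36 without replicate 1 (0.0567).

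Genes of defence were called lower in AECI more often than higher in 3 lists, although most of their members did not pass. Of 41 cytokines, chemokines and antimicrobial proteins, 12 were lower and 2 higher (median -0.63), against 4.14% and 2.87% of all genes. Il33, an alarmin, had signals of 10.80 and 10.25 in AECII and 5.66 and 5.85 in AECI (-4.77 ± 0.40), and Csf2, the growth factor GM-CSF on which alveolar macrophages depend, of 9.23 and 9.08 against 5.49 and 5.30 (-3.76 ± 0.40, adjusted p = 0.00371). Slpi, a secreted protease inhibitor, stood at 9.49 and 8.77 in AECII and was near background in AECI (2.97 and 4.49). Chil1, a chitinase-like protein (14.58 and 14.65, against 12.10 and 11.63), and Retnla (14.75 and 14.61, against 11.89 and 12.15) were bright in both populations. Cxcl16, a membrane-bound chemokine, was higher in AECI (10.86 and 11.68, against 9.12 and 8.88), a call lost without either WT AECII array (adjusted p up to 0.0823). Of 29 complement genes, 4 were lower and none higher, against 4.14% and 2.87% of all genes. The median was -0.02, so the list as a whole did not lean to either side. C6, a component of the membrane attack complex, stood at 12.25 and 11.33 in AECII and 5.12 and 6.59 in AECI (-5.93 ± 0.60), Hc, component C5, at 14.05 and 13.42 against 9.73 and 9.88, C3, the central component, at 12.68 and 12.71 against 10.56 and 9.88, and Cfi, complement factor I, at 8.16 in both against 4.55 and 5.61. Of these 4 genes, C3, Hc and C6 belong to the activation and the terminal steps of the cascade. Of the other genes of the list, 12 were below the median of all spots in all 4 WT arrays. Of 10 MHC class II genes, 3 were lower, against 4.14% of all genes. Cd74, the invariant chain, had signals of 10.28 and 10.49 in AECII and 7.48 and 7.83 in AECI (-2.72 ± 0.27), whereas H2-Aa was dim (6.91 and 6.79, against 3.98 and 3.52) and lost its call without WT AECI replicate 2 or either WT AECII array (up to 0.091).

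Interferon-induced genes and S100 and annexin genes leaned to AECI. Of 26 interferon-induced genes, 4 were higher and 1 lower (median 0.79), against 2.87% and 4.14% of all genes. Their signals were low, and 7 of the 26 were under the median of all spots in all 4 WT arrays. The list's median signal was 6.12 and 6.09 in AECI and 4.94 and 4.88 in AECII, near or below the level that could not be told from background. Ifit2 was higher at modest signals (7.16 and 7.41, against 4.17 and 3.11), and Bst2 stood at 9.36 and 9.80 against 7.71 and 7.22. Of 24 S100 and annexin genes, which bind calcium, 7 were higher and 1 lower (median 0.69), against 2.87% and 4.14% of all genes. S100a14 had signals of 13.06 and 13.29 in AECI and 10.30 and 10.03 in AECII (3.01 ± 0.27, adjusted p = 0.00242), S100a6 of 15.07 and 14.87 against 11.76 and 12.30, and Anxa3 of 13.10 and 13.35 against 11.36 and 10.88. S100g, calbindin D9k, was the reverse, at 12.97 and 12.90 in AECII and 9.67 and 9.72 in AECI (-3.23 ± 0.24, adjusted p = 0.00168). In the fit without WT AECII replicate 2, 1 interferon-induced and 2 S100 and annexin genes remained higher, and the calls of Bst2 (adjusted p = 0.069) and Anxa3 (0.0647) were lost.

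Of 38 antioxidant and xenobiotic enzymes, 11 were lower in AECI and 1 was higher (median -0.87), against 4.14% and 2.87% of all genes. Aox3 and Aox1, neighbouring aldehyde oxidases, had signals of 10.22 and 10.71, and of 7.19 and 8.03, in AECII, and were near background in AECI (3.91 and 3.57, and 2.95 and 3.45). Fmo1, a flavin monooxygenase, differed by -4.50 ± 0.47 and Cyp1b1 by -5.82 ± 0.40, both with AECI signals under the median. The enzyme that was higher was Prdx6, a peroxiredoxin that also acts on surfactant phospholipid (13.88 and 13.85, against 11.74 and 12.04). Several of these enzymes are also made by club cells of the airways, whose genes moved the same way, as given below. Single genes of 2 metabolic lists also differed, while most members did not pass. Of 21 genes of one-carbon metabolism, 2 were higher and 1 lower (median -0.37). Of 32 genes of glycogen and glucose metabolism, 2 were higher and 4 lower (median -0.25). The shares of all genes were 2.87% higher and 4.14% lower. Psat1, of serine synthesis, was higher in AECI (12.24 and 12.20, against 8.63 and 8.29), as was Pfkp, a phosphofructokinase (8.88 and 8.59, against 5.30 and 5.64), and Fbp1, of gluconeogenesis (2.88 and 3.58, against 6.53 and 6.20), and Ldhb, a lactate dehydrogenase (mean 10.94, against 12.84 and 13.09), were lower. Without WT AECII replicate 2, 4 enzymes of the list remained lower and the call of Ldhb was lost (adjusted p = 0.0533), and that of Prdx6 was lost without WT AECII replicate 1 (0.054).

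Genes of airway cell types were higher in the AECII arrays. Among 38 genes of ciliated cells, 23 were lower in AECI and none was higher (median -2.84), against 4.14% and 2.87% of all genes. The list of club and other secretory cells had 12 of 23 genes lower and none higher (median -2.35). Foxj1, the master regulator of motile cilia, had signals of 10.96 and 11.75 in AECII and 4.44 and 5.31 in AECI (-6.48 ± 0.59, adjusted p = 0.00239), and Cfap65 of 10.61 and 11.31 against 3.36 and 3.06 (measured difference -7.75 ± 0.39, with AECI under the median of all spots). Scgb1a1, the main club cell secretoglobin, stood at 15.90 and 15.92 in AECII, the top of the scale, and at 9.54 and 8.89 in AECI, and Scgb3a2 at 14.67 and 14.87 against 9.38 and 9.15. Hp, haptoglobin, and Aldh1a7 differed by -4.05 ± 0.31 and -3.85 ± 0.29. Summed over the ciliated list, the log2 signal was 15.81 and 15.83 in the AECII arrays and 15.04 and 15.32 in AECI, and the median of the list was 7.45 and 8.45 in AECII and 4.95 and 4.98 in AECI. For the club list the summed signal was 17.20 and 17.29 in AECII against 14.71 and 13.21. In bulk arrays, more cells of a type and more RNA per cell cannot be told apart, and the part of airway cells in the differences of other lists was not tested. Without WT AECII replicate 2, 10 ciliated genes remained lower, and 7 club genes remained without either WT AECII array.

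RFX factors act with Foxj1 on ciliary genes and bind the letters GTTGCCA, which were searched on both strands, as GTTGCCA or TGGCAAC, in the same promoter windows. Of 33 promoters of ciliated genes 7 (21.2%) held them, and 5 of the 18 of members that were lower in AECI, against 4.46% of all promoters. The share was 6.87% for all genes lower and 2.23% for all genes higher in AECI. The 3 promoters shown, with the letters in capitals, are of called members that hold them close to the start: Cfap44, a protein of the axoneme, at chr16:44394549-44394848 (plus strand, letters beginning 130 and 20 bases before the start), Hydin, of the central pair of cilia, at chr8:110266727-110267026 (plus strand, 14 bases before) and Tekt1, a filament protein of axonemal microtubules, at chr11:72361833-72362132 (minus strand, 15 bases before), on GRCm38.p6.
Cfap44: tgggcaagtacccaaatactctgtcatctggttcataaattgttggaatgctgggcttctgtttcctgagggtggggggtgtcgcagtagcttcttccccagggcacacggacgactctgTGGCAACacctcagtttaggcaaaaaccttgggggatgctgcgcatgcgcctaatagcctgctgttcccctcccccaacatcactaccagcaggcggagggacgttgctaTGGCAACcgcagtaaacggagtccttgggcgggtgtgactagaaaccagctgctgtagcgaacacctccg
Hydin: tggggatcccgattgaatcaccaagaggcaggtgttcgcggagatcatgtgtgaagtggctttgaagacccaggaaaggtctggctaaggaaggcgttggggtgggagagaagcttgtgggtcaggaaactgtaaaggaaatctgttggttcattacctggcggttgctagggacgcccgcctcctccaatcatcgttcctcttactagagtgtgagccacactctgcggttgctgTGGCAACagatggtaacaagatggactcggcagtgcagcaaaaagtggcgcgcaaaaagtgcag
Tekt1: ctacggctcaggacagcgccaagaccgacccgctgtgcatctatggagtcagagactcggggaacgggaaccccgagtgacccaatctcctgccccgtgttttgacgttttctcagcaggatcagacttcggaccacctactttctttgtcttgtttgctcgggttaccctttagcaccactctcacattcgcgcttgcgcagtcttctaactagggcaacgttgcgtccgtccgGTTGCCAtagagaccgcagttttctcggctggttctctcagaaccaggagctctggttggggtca
Cfap44 had signals of 8.33 and 9.18 in AECII and 5.10 and 4.66 in AECI (-3.88 ± 0.47), Hydin of 7.19 and 8.18 against 3.28 and 4.04 (-4.02 ± 0.43), and Tekt1 of 7.38 and 8.71 against 4.65 and 4.07. WT AECII replicate 2 gave the higher signal for each of the 3, and leaving out any of the WT arrays ended the call of Tekt1 (adjusted p up to 0.131).

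Markers of other cells that the sort could hold were examined next. No gene of 20 mesenchymal and 15 leukocyte genes was called, with median differences of -0.21 and -0.11. The median signal over the WT arrays was 4.28 to 5.97 for the mesenchymal, 4.54 to 6.47 for the leukocyte and 4.15 to 4.98 for the endothelial list, and 6, 6 and 5 of their genes were under the median of all spots in all 4 arrays. Of 15 endothelial genes, Esam was higher and Kdr lower, and both calls were lost without WT AECII replicate 2 (adjusted p = 0.0945 and 0.0738), that of Esam also without WT AECI replicate 1 and that of Kdr without WT AECII replicate 1. No erythroid gene of 8 was called. Hemgn was near the top of the scale, between 15.60 and 15.93 in the 4 WT arrays. The median signal of that list differed by array, at 10.57 in WT AECI replicate 2 and 10.25 in WT AECII replicate 1, against 7.02 and 6.83 in the other 2 arrays. The summed signals, which include Hemgn, were 16.96 and 16.76, against 16.08 and 16.11. Of 16 neuroendocrine genes the only one called was Ddc, aromatic amino acid decarboxylase, at 12.44 and 12.66 in AECI and 9.02 and 8.37 in AECII (3.86 ± 0.32). Of 12 basal cell genes, Pdpn, Ngfr and Snai2 were higher, against 2.87% of all genes. Pdpn was also in the list of AECI markers, so its call does not point to basal cells. The median difference of the basal list was 2.69, but its median signal was 11.67 in WT AECI replicate 1 and 8.74 in replicate 2. The median difference of the list was 0.83 without WT AECI replicate 1. The call of Ngfr was lost without WT AECI replicate 2 or WT AECII replicate 2 (adjusted p up to 0.0592), and that of Snai2 without WT AECI replicate 1 or WT AECII replicate 2 (up to 0.0782). The basal keratins Krt5 (12.30 and 4.77 in AECI) and Krt14 (12.32 and 3.82) were bright in WT AECI replicate 1 only, and neither passed the test. In AECII they stood at 3.06 and 7.77, and at 3.48 and 5.05. Genes of S phase and mitosis went with that array too, with a median signal of 7.84 in WT AECI replicate 1 and between 6.47 and 6.72 in the other WT arrays. None of the 4 of 38 such genes that were higher remained without that array, nor without WT AECII replicate 1. The part of these cells in other differences was not tested, and 482 genes were higher and 696 lower without this array.

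The same populations of the mutant lungs gave a separate set of 4 arrays, although the spread in the test was estimated over all 8. Of the 704 genes higher in WT AECI, both mutant AECI arrays lay above both mutant AECII arrays for 657 (93.3%), against 25.7% of all genes, and of the 1018 lower genes both lay below for 989 (97.2%), against 26.5% of all. All 30 of the genes with the smallest p by the rule kept their direction there. A test of whether the difference between the populations differed between mutant and WT called no gene of 24568 (limma), where 1158 had an unadjusted p under 0.05, and 1 gene was called without WT AECII replicate 1. Kcnk6, which encodes a potassium channel, was lower in WT AECI (2.51 and 3.14, against 6.08 and 4.97 in AECII), a difference of -2.70 ± 0.45, and differed by 2.22 in the mutant arrays. Rsad2, an interferon-induced gene, differed by -2.05 ± 0.43 in WT and 1.67 in mutant. Both had low signals in WT, and their WT calls were lost without WT AECI replicate 1 or WT AECII replicate 1 (adjusted p up to 0.0747 for Kcnk6 and 0.164 for Rsad2), that of Rsad2 also without either of the other WT arrays or either mutant AECII array. Mthfd2, of mitochondrial folate metabolism, had the smallest p of this test, with differences of 0.91 in WT and -3.51 in mutant (adjusted p = 0.999). Genotype and the Xist signal changed together in these arrays, so they cannot be told apart.

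**Figure D5:**
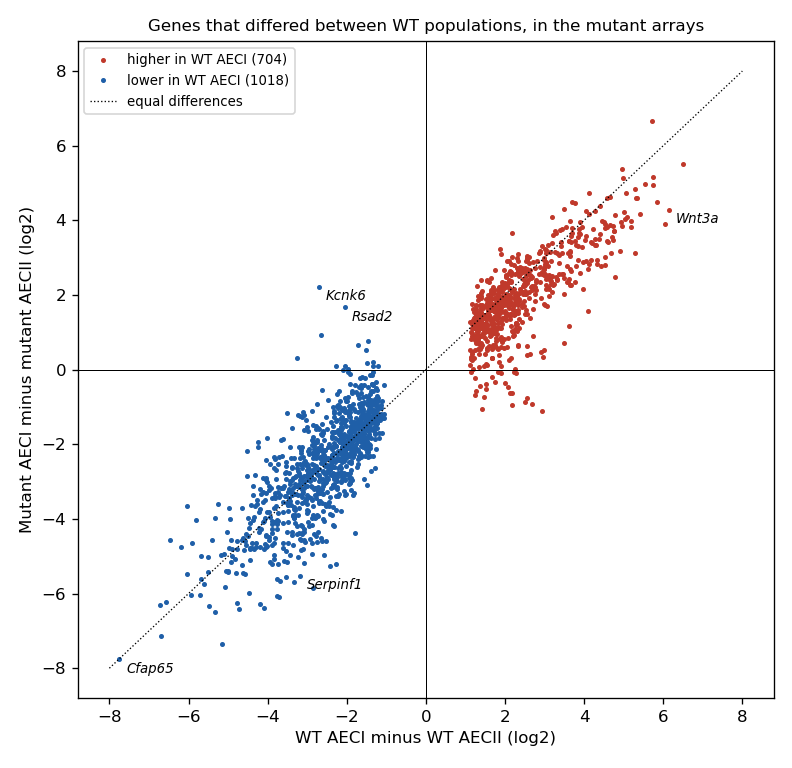
Difference between AECI and AECII in the WT arrays (x axis, log2) and in the mutant arrays (y axis, log2) for the 704 genes higher (red) and the 1018 lower (blue) in WT AECI, which were chosen by the x axis. The dotted line marks equal differences. Points lie along it in 2 quadrants, and Kcnk6 and Rsad2 are among the few on the other side of 0 in mutant.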

How the data were processed

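RNA of the 4 WT and 4 mutant samples was measured on single-colour Cy5 microarrays after whole-transcriptome amplification. The authors deposited log2 signals for 62976 spots on each of 8 arrays, already normalized between arrays, and limma is named in the processing notes without a version. Not given in the sources used here were the background correction and any detection limit. The arrays had the same distribution of signals, and 19035 spots without a gene name and 57 named spots with a missing value were left out. One spot per symbol was kept, by the highest mean over 8 arrays.

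limma 3.58.1 in R 4.3.3 fitted the 4 group means over all 8 arrays, with moderated tests and Benjamini-Hochberg adjustment over 24568 genes at a threshold of 0.05. The genes named were the 15 with the smallest p in each direction, taken from those past the threshold with non-overlapping WT arrays, a mean of at least 8 in the higher group and no provisional symbol, and members of 57 lists, of each up to the 8 with the smallest p, besides the AECI and AECII markers. Epcam, Cdh1, Nkx2-1, Xist, Col6a2, Cftr, Yap1, Cxcl16, Cfap44, Tekt1, Krt5, Krt14, Met, Apoe, Apoc1, Pla2g4a and Ptgs2 lay outside this rule and were named with their values known. The members and lists were chosen with earlier results of these data known. Replicates are labelled biological, and p-values measure the spread between these arrays only. The number of arrays limits the precision. Promoters came from RefSeq (GRCm38.p6). Alternatives changed the normalization, filter, choice of spot, variance model and samples. A limma fit of the same kind was run on simulated arrays with known changes, where the mean estimate was checked. The simulated noise was independent between genes and arrays, so error rates on the real arrays were not tested. Some items are not reported here.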

Additional observations from a re-analysis of the deposited data

How the results depend on the processing

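The count of 1722 genes differing between WT AECI and WT AECII was 1734 with quantile normalization and 1710 with median centring, which shifted the median difference of all genes by 0.10. It rose to 2587 with a trended and robust prior (1076 higher) and fell to 822 when only the 4 WT arrays were fitted (319 higher and 503 lower). Leaving out 1 array gave 527 to 1565 genes, 223 to 601 of them higher and 304 to 964 lower, and 0 to 1 gene for the difference between mutant and WT, with the lowest counts without WT AECII replicate 2. Of 183 called genes that are named, 134 passed in all 8 of these fits, and none turned in direction under any alternative. The 4 WT arrays alone lost 14 of the 183, the mean of all spots 5 and the replicate block 4. Uncalled genes turned in sign: Nkx2-1 was -0.0652 with quantile normalization and -0.0774 to 0.124 when 1 array was left out (lowest without WT AECII replicate 2), Hemgn was -0.0581 with the mean of all spots and -0.0733 to 0.227 (lowest without WT AECII replicate 1), and Krt5 was -0.64 to 6.88 and Krt14 -0.45 to 8.05, both lowest without WT AECI replicate 1. The deviations of arrays with the same replicate number correlated with r = -0.0686 in WT. This showed no shared deviation, but with 2 arrays per group it cannot tell whether the numbers paired the samples. A fit with the replicate number as a block called 568 genes higher and 819 lower, and 0 for the difference between mutant and WT. With 2 arrays per group, the test had 4 residual degrees of freedom and drew 2.87 more from the spread of all genes.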

Other observations

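Genes called in the same direction were next to each other more often than the share of such genes, though most were not. Of 19825 pairs of adjacent protein-coding genes, both were higher in AECI in 59, both lower in 109 and opposite in 49. The next gene was also higher for 9.06% of the 651 higher genes that had one, against 3.29% of all placed genes, and also lower for 11.3% of 962, against 4.85%. Neighbours can be copies of each other, and probes may cross-hybridise, which was not tested. Pairs of unrelated neighbours also occurred. Met, the receptor for hepatocyte growth factor, lies beside Cav1 and had signals of 11.52 and 11.80 in AECII and 9.13 and 8.69 in AECI (-2.75 ± 0.27), while Cav1 was higher in AECI. Atoh8 was higher and its neighbour Sftpb lower.

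Apoe and its neighbour Apoc1, which encode apolipoproteins, were lower in AECI, at 12.32 and 12.65 in AECII against 9.19 and 9.45 (Apoe), and at 12.05 and 12.09 against 8.95 and 7.66 (Apoc1). Pla2g4a, which releases arachidonic acid, and its neighbour Ptgs2, cyclooxygenase 2, which turns it into prostaglandins, were both lower, with signals of 10.18 and 10.62 in AECII against 6.89 and 6.97, and of 10.22 and 10.33 against 6.81 and 7.91. The call of Pla2g4a was lost without WT AECII replicate 2 (adjusted p = 0.0519) and that of Ptgs2 without either WT AECII array (up to 0.0823). These genes were chosen after their values were seen.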
